A study of Mus musculus with 40 samples.

Results

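The 6 genes Itgae, Itga1, Cd69, Cxcr6, Runx3 and Rgs1, which mark T cells settled in a tissue, were followed in RNA of whole CT26 tumors from 40 mice. The genes were chosen by symbol from a table of 54087 genes, in which all 6 were found. The rule uses no measured value, but it was set with earlier results of these data known. CT26 is a colon carcinoma line of BALB/c mice, and every group carried these tumors. Monoclonal antibodies were injected into the peritoneum 3 times, 6, 9 and 12 days after the cells were implanted, and tumors were collected on day 13. The 8 groups of 5 mice received the isotype control motavizumab (mIgG2a), 1 of 4 active antibodies alone, or anti-PD-1 FcS together with 1 of the other 3, called here the WT, the FcD and the anti-TGF-β combination. The active antibodies were anti-PD-1 FcS, anti-TGF-β, and anti-GARP:TGF-β1 in a WT and in an FcD format. Anti-GARP:TGF-β1 (clone 58A2) binds the complex of GARP and latent TGF-β1 on the surface of regulatory T cells and blocks release of the active cytokine, and its FcD format does not engage Fcγ receptors. Anti-TGF-β (clone 1D11) neutralizes the active cytokine in all its isoforms, and anti-PD-1 FcS has a silenced Fc part. The comparisons ask how each antibody, alone or with anti-PD-1, moved these genes. Ages and sexes of the mice are not in the labels.

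Tissue-resident T cells leave the blood, remain in a tissue or tumor for long periods and can respond there without recirculating. TGF-β is known to induce Itgae in T cells that enter epithelia, together with local signals that switch on Cd69 and switch off the genes of tissue egress. None of the 6 genes belongs to T cells alone: dendritic cells also use Itgae, endothelial and stromal cells Itga1, activated NK and B cells Cd69, and several leukocytes Rgs1. In RNA of whole tumors, fewer cells of a type and less RNA per cell cannot be told apart.

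By role, Itgae encodes integrin αE (CD103), which pairs with β7 to bind E-cadherin on epithelial cells (ENSMUSG00000005947, GRCm38 chromosome 11, 73090583 to 73147446). Itga1 encodes integrin α1 (CD49a), which pairs with β1 to bind collagen IV (ENSMUSG00000042284, chromosome 13, 114953096 to 115101964). Cd69 is an early activation antigen that removes the egress receptor S1PR1 from the surface (ENSMUSG00000030156, chromosome 6, 129267325 to 129275436). Cxcr6 is the receptor of the chemokine CXCL16 (ENSMUSG00000048521, chromosome 9, 123806475 to 123811760). Runx3 is a transcription factor of cytotoxic T cells and of residency (ENSMUSG00000070691, chromosome 4, 135120652 to 135177990). Rgs1 encodes a GTPase activator that dampens signals of chemokine receptors (ENSMUSG00000026358, chromosome 1, 144242296 to 144249242). Some of the genes overlap others in the annotation: Itgae overlaps Haspin and Cxcr6 overlaps Fyco1, each on the opposite strand, Runx3 overlaps the antisense gene Gm16224, and Itga1 overlaps Pelo, Gm49395 and the antisense gene Gm10734. The libraries were stranded, but the strand setting of the counting is not given in the sources used here.

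Because a member is itself a transcription factor, the 250 bases before the start of the members are shown where RefSeq's promoter table of GRCm38.p6 held an entry. It held a pair of starts for Runx3 and a start each for Cxcr6 and Itga1. The capitals mark the core motif of RUNX factors, TGTGGT, on either strand (ACCACA on the reverse). The distal Runx3 start, chr4:135120395-135120644 on the plus strand, holds 2 matches, the Cxcr6 start, chr9:123806227-123806476 on the plus strand, holds 1 match, 10 bases before the start, and the Itga1 start, chr13:115101965-115102214 on the minus strand, holds 0.
Runx3 distal: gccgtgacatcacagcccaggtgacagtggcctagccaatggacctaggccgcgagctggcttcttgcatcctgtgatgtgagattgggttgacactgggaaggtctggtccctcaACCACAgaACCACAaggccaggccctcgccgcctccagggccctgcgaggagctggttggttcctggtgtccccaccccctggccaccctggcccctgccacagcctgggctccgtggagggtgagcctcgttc
Cxcr6: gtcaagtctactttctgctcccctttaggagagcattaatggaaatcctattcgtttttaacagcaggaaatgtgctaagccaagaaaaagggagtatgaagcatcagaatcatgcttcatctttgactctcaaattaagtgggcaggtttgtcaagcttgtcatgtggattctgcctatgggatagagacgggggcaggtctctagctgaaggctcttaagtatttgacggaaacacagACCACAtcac
Itga1: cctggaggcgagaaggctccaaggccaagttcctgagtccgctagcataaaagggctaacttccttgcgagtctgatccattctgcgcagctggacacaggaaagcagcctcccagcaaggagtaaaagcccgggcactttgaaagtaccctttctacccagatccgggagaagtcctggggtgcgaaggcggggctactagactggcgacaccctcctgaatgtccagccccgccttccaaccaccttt
Of 32851 mouse promoters of this length in the table, 14.0% hold the motif. The second Runx3 start holds 0 matches. A match describes the letters of the window and is not a measured binding site.

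The total count per mouse ran from 11931730 to 20680548 (median 14030511), and values are given as CPM, counts scaled to the same number of reads assigned to genes in every library, after TMM scaling, a factor per library that corrects for composition. All 6 genes were among the 14760 that passed a filter on low counts. Itgae was the thinnest, with 13 to 68 counts per mouse, and Runx3 the best covered in the poorest tumor, with 431 to 794. The titles number the libraries 41 to 80, and the libraries fall into parts that differ in genes of the sex chromosomes. Libraries 41 to 60 held 266 to 1078 counts of 4 Y-linked genes and 0 to 6 of Xist, and libraries 61 to 80 held 0 to 1 and 784 to 12701. Each group had 2 or 3 mice in each part. In a model with part as a term, Runx3 was 0.12 higher on the log2 scale in libraries 61 to 80 (SE 0.04, edgeR adjusted p = 0.185), and the adjusted p of the other 5 genes was higher still.

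Runx3 was the steadiest of the genes and Cxcr6 the most variable. Per kilobase of annotated exon, the mean levels over the 40 mice were 8.07 CPM for Runx3, 4.91 for Cxcr6, 2.11 for Rgs1, 0.677 for Cd69, 0.561 for Itga1 and 0.506 for Itgae. The exon length joins all annotated transcripts, and for Rgs1 it covers the whole gene (6947 bases), so its level per kilobase may be too low. The order depends on this length: before division by it, mean CPM was 14.6 for Rgs1 and 9.48 for Cxcr6. The coefficient of variation across mice was 10.5% for Runx3, 29.0% for Cd69, 36.5% for Itgae, 40.5% for Rgs1, 54.0% for Itga1 and 131% for Cxcr6. Compared within each mouse per kilobase, Runx3 exceeded Cxcr6 in 35 of 40 mice, Cxcr6 exceeded Rgs1 in 27, Rgs1 exceeded Cd69 in 40, Cd69 exceeded Itga1 in 29 and Itga1 exceeded Itgae in 24. The mean log2 ratio was smaller than its SD over mice for Cxcr6 over Rgs1 (0.66, SD 1.09), Cd69 over Itga1 (0.34, SD 0.55) and Itga1 over Itgae (0.11, SD 0.56). Cxcr6 ran from 1.06 to 76.4 CPM, a 72.0-fold range, and Runx3 from 31.8 to 49.5 CPM, a 1.55-fold range. The mouse of library 77, of the WT combination, had the highest level of Itgae, Itga1, Cxcr6 and Rgs1 among all 40. That of library 47, treated with anti-PD-1 alone, had the lowest level of Cd69, Runx3 and Rgs1.

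**Figure D1:**
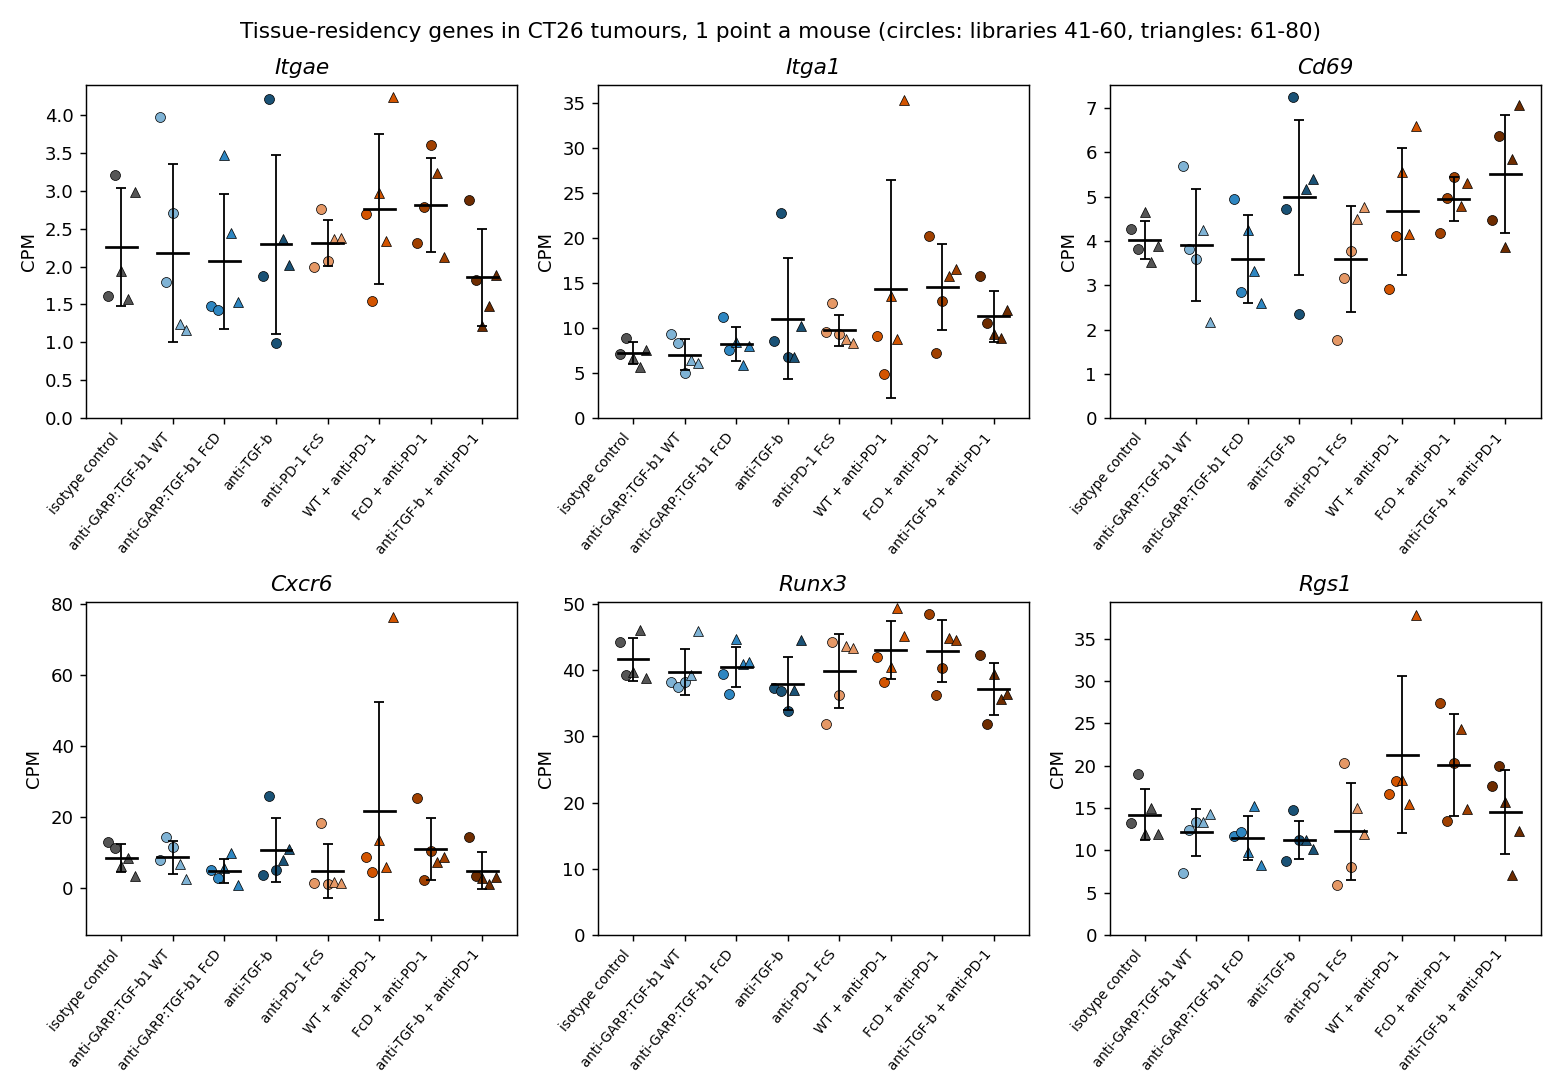
CPM (vertical axes, linear) of the 6 genes in each of 40 mice by treatment group (horizontal axes). Circles are libraries 41 to 60 and triangles 61 to 80, the bar is the mean of 5 mice and the whisker its SD; library 77 is the single high point of Itga1 (35.4), Cxcr6 (76.4) and Rgs1 (37.8) in the WT combination.

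No member passed a Benjamini-Hochberg adjusted p of 0.05 in any of 16 contrasts by edgeR's quasi-likelihood test, which counts 96 tests of members. That is the background of the table as well: 13 of the contrasts called no gene of 14760 (0%), both the anti-TGF-β combination against anti-PD-1 and the anti-TGF-β average called 1 gene (0.00678%), and the anti-PD-1 average called 87 (0.589%). The members are therefore described by their values, their fold changes with standard errors, and unadjusted p, read against the share of all genes at an unadjusted p under 0.05. Exact permutation tests of log2 CPM, two-sided, were run for 13 pairs of groups, 78 tests in all, of which 9 had p under 0.05. No member had such a p against the isotype control with WT alone (1.9% of all genes had one), FcD alone (1.5%), anti-TGF-β alone (1.83%) or the WT combination (13.9%), against anti-PD-1 with the WT (6.27%) or anti-TGF-β combination (12.1%), or with the anti-TGF-β combination against anti-TGF-β alone (5.22%). With the FcD combination against FcD alone 3 of 6 did (Itga1, Cd69 and Rgs1; 21.9% of all genes), and the other 6 are given below with their shares. The smallest p that 5 against 5 mice can give is 0.00794. Comparisons with the same control share its 5 mice.

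With the monotherapies no member passed the threshold against the isotype control, and anti-PD-1 alone had 4 of 5 mice with less Cxcr6 and 3 of 5 with more Itga1 than any control mouse. The 24 log2 fold changes against the isotype control ran from -0.80 (Cxcr6 with anti-PD-1, SE 0.79) to 0.61 (Itga1 with anti-TGF-β, SE 0.35), and none had an unadjusted p under 0.05. Over all genes, that share was 0.969% for WT, 0.474% for FcD, 2.32% for anti-TGF-β and 0.955% for anti-PD-1. Itgae, the member best known as a TGF-β target, had 1.61, 3.21, 1.94, 1.57 and 2.98 CPM in isotype control mice. With anti-TGF-β it had 1.88, 4.21, 0.987, 2.36 and 2.02 CPM. The groups overlap throughout, and the fitted difference was 0.02 on the log2 scale (SE 0.34, adjusted p = 1.00). Rgs1 was 0.23 lower with anti-GARP:TGF-β1 WT (SE 0.28) and 0.31 lower with FcD (SE 0.28) on the same scale, neither past the threshold. With 1 mouse left out these ran from -0.30 to -0.094 and from -0.44 to -0.18, the values nearest 0 without libraries 42 and 51, and within libraries 41 to 60 and 61 to 80 the WT difference in mean log2 CPM was -0.57 and 0.10. Cxcr6 had 13.1, 11.3, 6.39, 8.56 and 3.46 CPM in isotype control mice and 1.40, 18.5, 1.21, 1.84 and 1.51 CPM with anti-PD-1 alone. The mean log2 CPM differed by -1.59 (exact permutation p = 0.0873), and the fitted log2 fold change of -0.80 became -2.51 without library 52, the high mouse (edgeR adjusted p = 1.00 in both fits). Itga1 had 7.17, 8.89, 6.73, 5.66 and 7.62 CPM in isotype control mice and 9.53, 12.8, 9.34, 8.77 and 8.30 CPM with anti-PD-1 alone. In 3 of the 5 anti-PD-1 mice the level lay above every control mouse (exact permutation p = 0.0238, unadjusted over the 78 tests; 1.91% of all genes had p under 0.05), and the fitted log2 fold change was 0.43 (SE 0.35, edgeR adjusted p = 1.00). With anti-PD-1 alone 3 of 3 skeletal muscle and 1 of 4 mast cell genes were higher than in the isotype control at an unadjusted p under 0.05. The summed muscle genes had a median of 1.08 CPM and a highest mouse of 124 CPM, library 52, against 0.672 and 2.15 CPM in controls. T cell genes had a median log2 fold change of -0.52 (0 of 6 past that p) and CD8 genes of -0.86 (0 of 2). With anti-TGF-β alone 3 of 4 neutrophil, 1 of 5 NK cell and 1 of 5 regulatory T cell genes and Cd4 were higher at that p. With WT alone 2 of 4 B cell and 1 of 5 regulatory T cell genes were higher. The part of these cells in the values of the members was not tested.

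Both GARP combinations had higher mean levels of Itga1 and Rgs1 than the isotype control, short of the threshold. Itga1 with the WT format had 9.12, 4.93, 13.5, 8.77 and 35.4 CPM, a mean of 14.3 ± 12.1 (SD, n = 5) against 7.21 ± 1.19. Its log2 fold change was 0.99 (SE 0.35, edgeR adjusted p = 0.159, unadjusted p = 0.00761). Without library 77 it was 0.33, and the log2 fold change of Rgs1 in the same comparison was 0.27. This group held both the highest Itga1 level of the 40 mice, in library 77, and the lowest, in library 55. With the FcD format Itga1 had 20.2, 7.24, 13.1, 15.8 and 16.6 CPM, a mean of 14.6 ± 4.82. In 4 of those 5 mice it lay above all controls (log2 fold change 1.01, SE 0.35, edgeR adjusted p = 0.235, exact permutation p = 0.0238, beside 17.7% of all genes at p under 0.05).

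Rgs1 had 13.2, 19.1, 11.9, 15.0 and 11.9 CPM in isotype control mice. With the WT combination it had 16.6, 18.2, 18.3, 15.5 and 37.8 CPM (log2 fold change 0.58, SE 0.28, edgeR adjusted p = 0.230), and with the FcD combination 27.5, 13.5, 20.3, 24.3 and 14.9 CPM (0.50, SE 0.28, adjusted p = 0.346). The groups overlap in both cases. The Cd69 levels of the FcD combination, 4.18, 4.98, 5.45, 4.79 and 5.31 CPM, lay above every isotype control mouse in 4 of 5 cases (exact permutation p = 0.0238, beside the same 17.7%), with a small log2 fold change of 0.29 (SE 0.26, edgeR adjusted p = 0.548). Cxcr6 with the WT combination held a mean of 21.9 CPM against 8.56, made by the 76.4 CPM of library 77, since the other 4 mice had 8.82, 4.52, 13.7 and 5.99. Its log2 fold change of 1.35 (SE 0.77) became -0.06 without that mouse.

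At an unadjusted p under 0.05, 2 of the 6 members were called with the WT combination (20.7% of all genes were) and 1 with the FcD combination (16.6% of all genes), all higher. Counts of this size are near the share of the whole table. Markers of other cells were higher at the same unadjusted p in both comparisons, with 4 of 4 type 1 dendritic cell and 4 of 4 mast cell genes in each. The WT comparison also had 4 of 5 regulatory T cell, 3 of 3 endothelial, 4 of 6 macrophage, 2 of 6 T cell, 1 of 5 NK cell and 1 of 4 neutrophil genes. The FcD comparison had 2 of 5 regulatory T cell, 0 of 3 endothelial, 2 of 6 macrophage, 0 of 6 T cell, 3 of 4 neutrophil, 2 of 2 adipocyte, 1 of 6 fibroblast and 3 of 3 carcinoma genes. The carcinoma list holds the epithelial genes Krt8, Krt18 and Epcam, whose summed level had group medians of only 7.87 to 18.5 CPM. Whether it follows the content of carcinoma cells was not tested. Cd4, the single gene taken for CD4 T cells, was higher at that p in both comparisons, with log2 fold changes of 1.17 (WT) and 1.22 (FcD). The part of these cells in the values of the members was not tested. Within libraries 61 to 80 the WT combination was above the isotype control by 1.27 for Itga1 and 0.77 for Rgs1 (log2 CPM), while within libraries 41 to 60 these differences were -0.25 and 0.13. With the FcD combination the differences were 1.27 and 0.56 in libraries 61 to 80, and 0.63 and 0.30 in libraries 41 to 60.

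With the anti-TGF-β combination, the means of Itga1 and Cd69 lay above and those of Cxcr6, Itgae and Runx3 below the isotype control, and none of these differences passed the threshold. Itga1 had 15.8, 10.5, 9.30, 8.89 and 12.0 CPM, the lowest of which equals the highest control mouse to 3 digits. All 5 mice lay above all 5 controls (exact permutation p = 0.00794, the smallest possible), as did 1.73% of all genes in that direction, and 15.5% of all genes had p under 0.05. The fitted log2 fold change was 0.65 (SE 0.35, edgeR adjusted p = 0.290). Cd69 had 4.47, 6.36, 3.85, 5.85 and 7.07 CPM against 4.26, 3.81, 4.65, 3.54 and 3.88 in controls (0.45, SE 0.26, adjusted p = 0.308). In the same comparison 4 of 4 B cell, 3 of 5 NK cell, 3 of 4 neutrophil, 2 of 4 mast cell, 1 of 5 regulatory T cell, 1 of 4 type 1 dendritic cell, 1 of 6 macrophage and 0 of 6 T cell genes were higher at an unadjusted p under 0.05. Cd4 was higher too (log2 fold change 1.03). The part of these cells in the values of the members was not tested. Cxcr6 had 14.4, 3.44, 3.02, 1.24 and 3.10 CPM, below every control mouse in 4 of 5 cases. Its mean log2 CPM was -1.08 from the control (exact permutation p = 0.127), and the fitted log2 fold change was -0.77 (SE 0.79, edgeR adjusted p = 0.589), or -1.64 without library 53, the high mouse (adjusted p = 0.188). Itgae had 2.88, 1.82, 1.21, 1.48 and 1.89 CPM, the lowest group mean of the 8 at 1.86 ± 0.634, and was 0.28 lower than the control on the log2 scale (SE 0.34, adjusted p = 0.645; -0.48 to -0.12 with 1 mouse left out, the lowest without library 53 and the highest without library 51). Within libraries 41 to 60 its mean log2 CPM differed by 0.0069 and within libraries 61 to 80 by -0.44. Runx3 was 0.17 lower (SE 0.10, adjusted p = 0.315). No member had an unadjusted p under 0.05, against 20.1% of all genes.

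**Figure D2:**
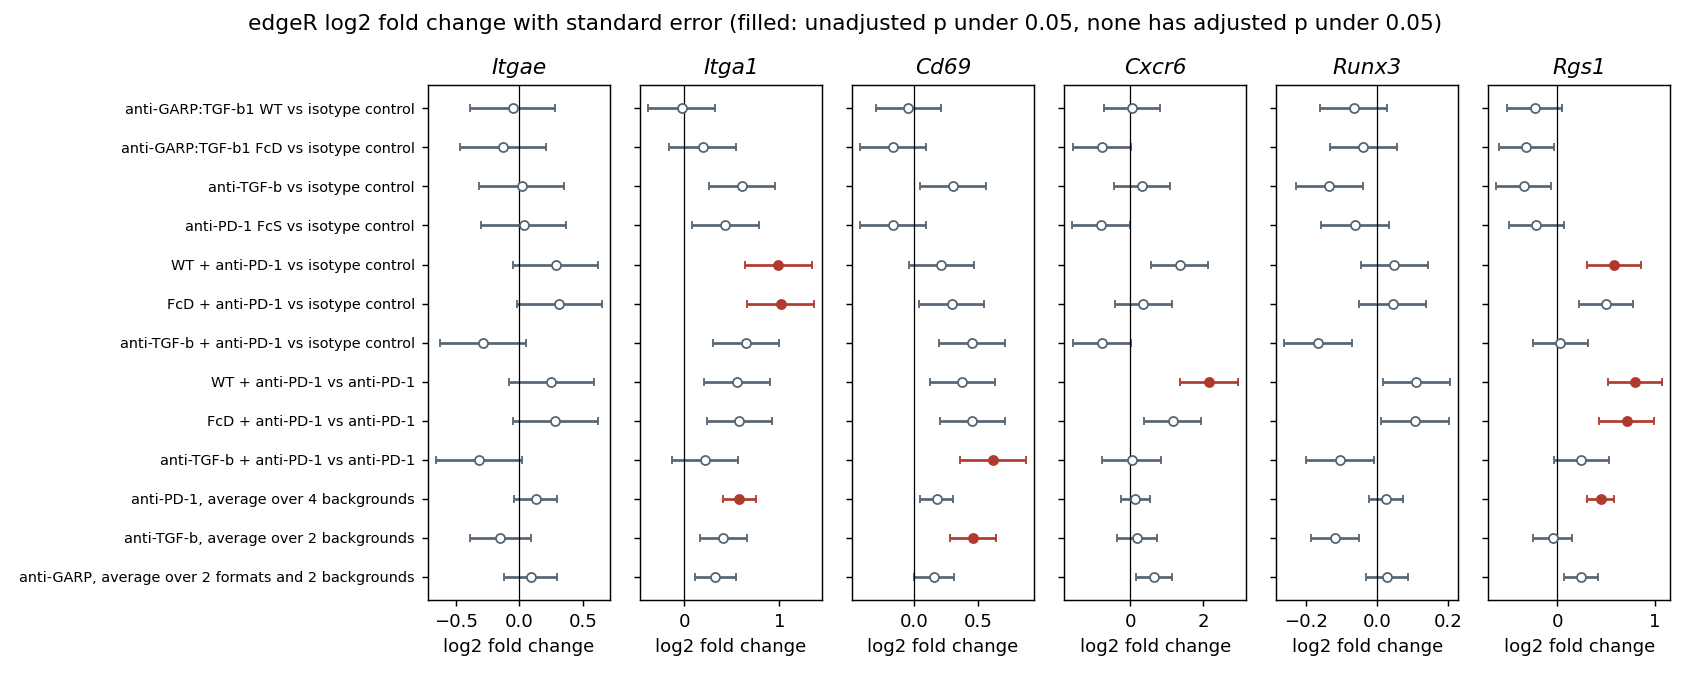
edgeR log2 fold change (horizontal axes, a scale of its own for each gene) with its standard error for 13 contrasts (vertical axis). Filled points had an unadjusted p under 0.05; they are Itga1 and Rgs1 in GARP combinations and the anti-PD-1 average, Cxcr6 in 1 contrast and Cd69 in 2, and no point passed after adjustment.

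Set against anti-PD-1 alone, which asks what blocking TGF-β adds, both GARP combinations had higher mean Rgs1 and Cxcr6, again short of the threshold. Rgs1 had 5.91, 20.3, 8.06, 15.0 and 12.0 CPM with anti-PD-1 alone, so that group spans the levels of most combination mice. Its log2 fold change was 0.80 with the WT combination (SE 0.28, edgeR adjusted p = 0.231) and 0.71 with the FcD combination (SE 0.28, adjusted p = 0.458). With the anti-TGF-β combination it was 0.25 (SE 0.28, adjusted p = 0.672), with differences in mean log2 CPM of 0.91 in libraries 41 to 60 and -0.26 in libraries 61 to 80, and a fitted value of 0.075 without library 47. Cxcr6 was low in 4 of the 5 anti-PD-1 mice, with 1.40, 1.21, 1.84 and 1.51 CPM, and at 18.5 CPM in the mouse of library 52. The WT combination was 2.15 higher (log2, SE 0.80, adjusted p = 0.231) and the FcD combination 1.16 higher (SE 0.79, adjusted p = 0.503). Without library 52, 538 genes of the table passed in the WT comparison, among them Cxcr6 (log2 fold change 3.87, adjusted p = 0.0414) and Rgs1 (1.06, adjusted p = 0.0414). Without library 77, 0 genes passed, and these log2 fold changes were 0.74 and 0.49. For the FcD combination the Cxcr6 value was 2.87 without library 52 and 0.58 without library 44. Over all mice 4 of 4 type 1 dendritic cell, 5 of 6 macrophage, 3 of 4 mast cell, 3 of 5 NK cell, 3 of 5 regulatory T cell, 1 of 4 neutrophil and 1 of 3 endothelial genes were higher at an unadjusted p under 0.05 in the WT comparison. In the FcD comparison 4 of 4 type 1 dendritic cell, 2 of 4 neutrophil, 1 of 5 regulatory T cell, 1 of 5 NK cell, 1 of 6 macrophage, 1 of 4 mast cell and 1 of 3 carcinoma genes were. Skeletal muscle genes were lower at that p, 3 of 3, in all 3 combinations against anti-PD-1, with median log2 fold changes of -5.09 (WT), -4.71 (FcD) and -6.07 (anti-TGF-β), and their highest level among anti-PD-1 mice was the 124 CPM of library 52. The part of these cells in the values of the members was not tested. The T cell genes moved with the WT comparison too, 6 of 6 being higher at an unadjusted p under 0.05 (0 of 6 in the FcD comparison), and with the T cell level in the model the log2 fold change of Cxcr6 was 0.28 (SE 0.31, adjusted p = 1.00).

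In the anti-TGF-β combination against anti-PD-1, Cd69 was the member with an unadjusted p under 0.05. Mice given anti-PD-1 alone had 1.77, 3.17, 3.78, 4.50 and 4.76 CPM of it, and 3 of the 5 mice of the anti-TGF-β combination exceeded all of these. Its log2 fold change was 0.62 (SE 0.26, edgeR adjusted p = 0.236, exact permutation p = 0.0556). With the FcD combination, 4 of 5 mice exceeded all anti-PD-1 mice (0.46, SE 0.26, adjusted p = 0.461, exact permutation p = 0.0397, beside 8.48% of all genes at p under 0.05). The counts at an unadjusted p under 0.05 were 2 of 6 members for the WT combination, 1 for FcD and 1 for anti-TGF-β, beside 17.2%, 10.7% and 17.1% of all genes. In libraries 41 to 60 and 61 to 80, Cd69 was 0.91 and 0.22 higher (log2 CPM) with the anti-TGF-β combination, and 0.77 and 0.12 higher with FcD. In the anti-TGF-β comparison 3 of 5 NK cell, 1 of 6 T cell, 1 of 4 type 1 dendritic cell and 1 of 6 macrophage genes were higher at an unadjusted p under 0.05, beside the lower muscle genes given above.

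Averaged over its 4 backgrounds, anti-PD-1 had its largest log2 effects on Itga1 and Rgs1, which came closer to the threshold than any member in any other contrast without passing it. The log2 effect was 0.58 for Itga1 (SE 0.17, edgeR adjusted p = 0.0657) and 0.45 for Rgs1 (SE 0.14, adjusted p = 0.0716), that is 2 of 6 members beside 23.4% of all genes at an unadjusted p under 0.05. The other 4 members had effects from 0.03 to 0.18. The backgrounds differed. In mean log2 CPM, the Rgs1 difference was -0.32 for anti-PD-1 alone against the isotype control. When anti-PD-1 was added to WT, FcD and anti-TGF-β it was 0.76, 0.78 and 0.31. For Itga1 these differences were 0.42, 0.71, 0.76 and 0.17 in the same order. Within libraries 41 to 60 the average effects on mean log2 CPM were 0.23 for Itga1 and 0.36 for Rgs1, and within libraries 61 to 80 they were 0.77 and 0.40. Cxcr6, fitted at 0.14, had -0.42 and -0.15 on that scale. Both genes passed by DESeq2's Wald test (adjusted p = 0.0316 and 0.0392), which called 860 genes. Leaving out the mouse of library 48, 55, 69 or 50 brought Itga1 past the threshold, and leaving out library 47, 48, 50 or 66 did so for Rgs1. The fits without 1 of these 6 mice called 260 to 2243 genes of the table, against 87 with all mice. Markers of other cells moved with this contrast: 4 of 4 mast cell, 4 of 4 neutrophil, 4 of 4 type 1 dendritic cell, 4 of 5 NK cell, 4 of 5 regulatory T cell, 4 of 6 macrophage, 3 of 3 carcinoma, 1 of 3 endothelial and 1 of 6 T cell genes were higher at an unadjusted p under 0.05. Cd4 was higher at that p too (log2 effect 0.49). Of 6 fibroblast genes, 1 was higher and 2 were lower. After adjustment 1 NK cell and 1 mast cell gene passed (Gzma and Tpsb2, named after their values were seen). Their part in the results for Itga1 and Rgs1 was not tested.

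For the average of anti-TGF-β over both backgrounds, 1 of 6 members was called at an unadjusted p under 0.05, beside 14.1% of all genes. It was Cd69, at 0.46 on the log2 scale (SE 0.18, edgeR adjusted p = 0.278). Among the markers, 3 of 5 NK cell, 3 of 4 B cell, 3 of 4 neutrophil and 1 of 5 regulatory T cell genes and Cd4 were higher with it at an unadjusted p under 0.05. Itgae was at -0.15 (SE 0.24) and Runx3 at -0.12 (SE 0.07), neither past the threshold. The average of anti-GARP:TGF-β1 over both formats and backgrounds ran from 0.03 for Runx3 to 0.64 for Cxcr6 (SE 0.49; 1.5 without library 52 and 0.29 without library 77), and called no member (4.70% of all genes).

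Whether a combination exceeded the sum of its parts on the log2 scale was tested with an interaction term. Rgs1 was the member with the lowest p in both GARP formats, with an interaction of 1.03 on the log2 scale for WT (SE 0.40, edgeR adjusted p = 0.483, unadjusted p = 0.0136) and 1.03 for FcD (SE 0.40, adjusted p = 0.787, unadjusted p = 0.0138). With 1 mouse left out these ran from 0.72 to 1.29 and from 0.84 to 1.29. Rgs1 was also below the isotype control with anti-PD-1 (-0.21), WT (-0.23) and FcD (-0.31) alone, and these values enter the term. It had 7.33, 12.4, 13.3, 13.3 and 14.3 CPM with WT alone, and all 5 mice of the WT combination lay above these (exact permutation p = 0.00794), as 2.74% of all genes did in that direction, and 19.8% of all genes had p under 0.05. For anti-TGF-β the Rgs1 interaction was 0.59 (SE 0.40, adjusted p = 0.959). The counts at an unadjusted p under 0.05 were 1 of 6 for WT, 1 of 6 for FcD and 0 of 6 for anti-TGF-β, beside 8.75%, 4.49% and 2.30% of all genes.

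Other genes of the program were read from lists of partners, ligands, further residency genes, egress genes and TGF-β targets, and no listed gene passed an adjusted p of 0.05 in any contrast. Of 13 further residency genes that passed the filter, 3 were higher and 1 lower with the WT combination against the isotype control at an unadjusted p under 0.05, beside 20.7% of all genes. They were Nr4a3, an immediate response factor (log2 fold change 1.03, SE 0.38), Litaf (0.43, SE 0.15), Prdm1, which encodes Blimp-1 (0.61, SE 0.29), and, lower, the phosphatase gene Dusp6 (-0.38, SE 0.14). The FcD combination gave 2 higher (Nr4a3, Litaf) and 1 lower (Dusp6), beside 16.6% of all genes. The anti-TGF-β combination gave 2 higher and 2 lower, beside 20.1%, and the anti-TGF-β average 0 higher and 2 lower, beside 14.1%. Zfp683, which encodes Hobit, had at most 2 counts in a mouse and was not tested.

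Of 9 tested genes of circulating T cells and egress, 3 were higher with the WT combination, 2 with FcD, and 2 higher and 1 lower with the anti-TGF-β combination, all unadjusted and beside 20.7%, 16.6% and 20.1% of all genes. S1pr1, the receptor that Cd69 opposes, had a log2 fold change of 0.61 (SE 0.29) with the WT and 0.59 (SE 0.29) with the FcD combination. S1pr5 had at most 7 counts and was not tested. In single mice Klf3, Klf2 and Cx3cr1 reached 2722, 1605 and 1243 counts, above Cd3g (1043), the highest of the T cell genes, and the other egress genes stayed below it. Among the further residency genes, Dusp6 reached 7722 and Litaf 3420. Such RNA need not come from T cells, and its source was not tested.

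Among the 6 ligand genes, Cdh1, which encodes the E-cadherin bound by integrin αEβ7, had log2 fold changes of 1.76 (SE 0.69) with the WT and 2.01 (SE 0.69) with the FcD combination. Cxcl16, the ligand of Cxcr6, was at 0.54 (SE 0.25) and 0.53 (SE 0.25) against anti-PD-1 alone. Krt8, Krt18 and Epcam, the epithelial genes of the carcinoma list, had log2 fold changes of 1.75 to 3.85 with the FcD combination and 1.13 to 2.66 with WT against the isotype control. The median summed level of the 3 genes was 9.66 CPM with FcD and 17.9 CPM with WT, against 15.9 CPM in isotype controls, and the highest mice had 320.0 and 135 CPM. The median of Cdh1 was 2.02 and 2.91 CPM against 1.49, with highest mice at 21.6 and 17.7. Whether these genes follow carcinoma content was not tested. Of the 5 partners and antagonists, Itgb7, the partner of Itgae, was at 0.31 (SE 0.13) with the WT combination, and Runx1 was at -0.22 (SE 0.07, adjusted p = 0.185) in the anti-TGF-β average. Of 6 TGF-β targets, Smad7, Skil and Ldlrad4 were lower at an unadjusted p under 0.05 with anti-TGF-β and anti-PD-1 against anti-PD-1 (-0.33, -0.43 and -0.48), beside 17.1% of all genes, and none was with anti-TGF-β alone against the isotype control, beside 2.32% of all genes, nor with the anti-TGF-β combination against it, beside 20.1%.

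Within groups, the level of Cxcr6 was correlated with that of T cell genes over mice. A T cell level was taken as the mean log2 CPM of Cd3d, Cd3e, Cd3g, Cd247, Cd2 and Lck, and its 40 values, like those of each gene, were reduced to deviations from the group means. These deviations were correlated over 40 mice for 99 relations (84 between a member and 1 of 14 marker lists, 15 between members), with p from 100000 permutations within groups, adjusted over the 99, and 52 relations had an adjusted p under 0.05. Markers and members come from the same libraries. For the T cell level, the share of all genes with a lower r is given below. For the other lists it was not computed, so an r with them may be common to many genes.

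Cxcr6 had r = 0.93 with the T cell level (rho = 0.91, permutation adjusted p = 0.000124 and 0.000198) and r = 0.90 without the 2 mice farthest from the median, those of libraries 52 and 77. Within libraries 41 to 60 r was 0.95 and within 61 to 80 it was 0.94. With Cd8a and Cd8b1 r was 0.96 (rho = 0.96, the same adjusted p). Itga1 had r = 0.72 (rho = 0.59, adjusted p = 0.000330 and 0.00213), Rgs1 0.60 (rho = 0.50, 0.00190 and 0.0103), Itgae 0.58 (rho = 0.56, 0.00155 and 0.00535) and Cd69 0.46 (rho = 0.43, 0.0326 and 0.0347). Without libraries 52 and 77 these were 0.63, 0.45, 0.56 and 0.45. Of all genes tested, the share with a lower r with the T cell level was 99.9% for Cxcr6, 94.5% for Itga1, 88.6% for Rgs1, 87.7% for Itgae, 80.5% for Cd69 and 69.4% for Runx3, so that for the last 4 of these more than 10% of all genes had a higher r. Runx3 had r = 0.28 (rho = 0.25, adjusted p = 0.188 and 0.241), and its r was 0.68 within libraries 41 to 60 and -0.035 within libraries 61 to 80, so no common relation can be given.

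**Figure D3:**
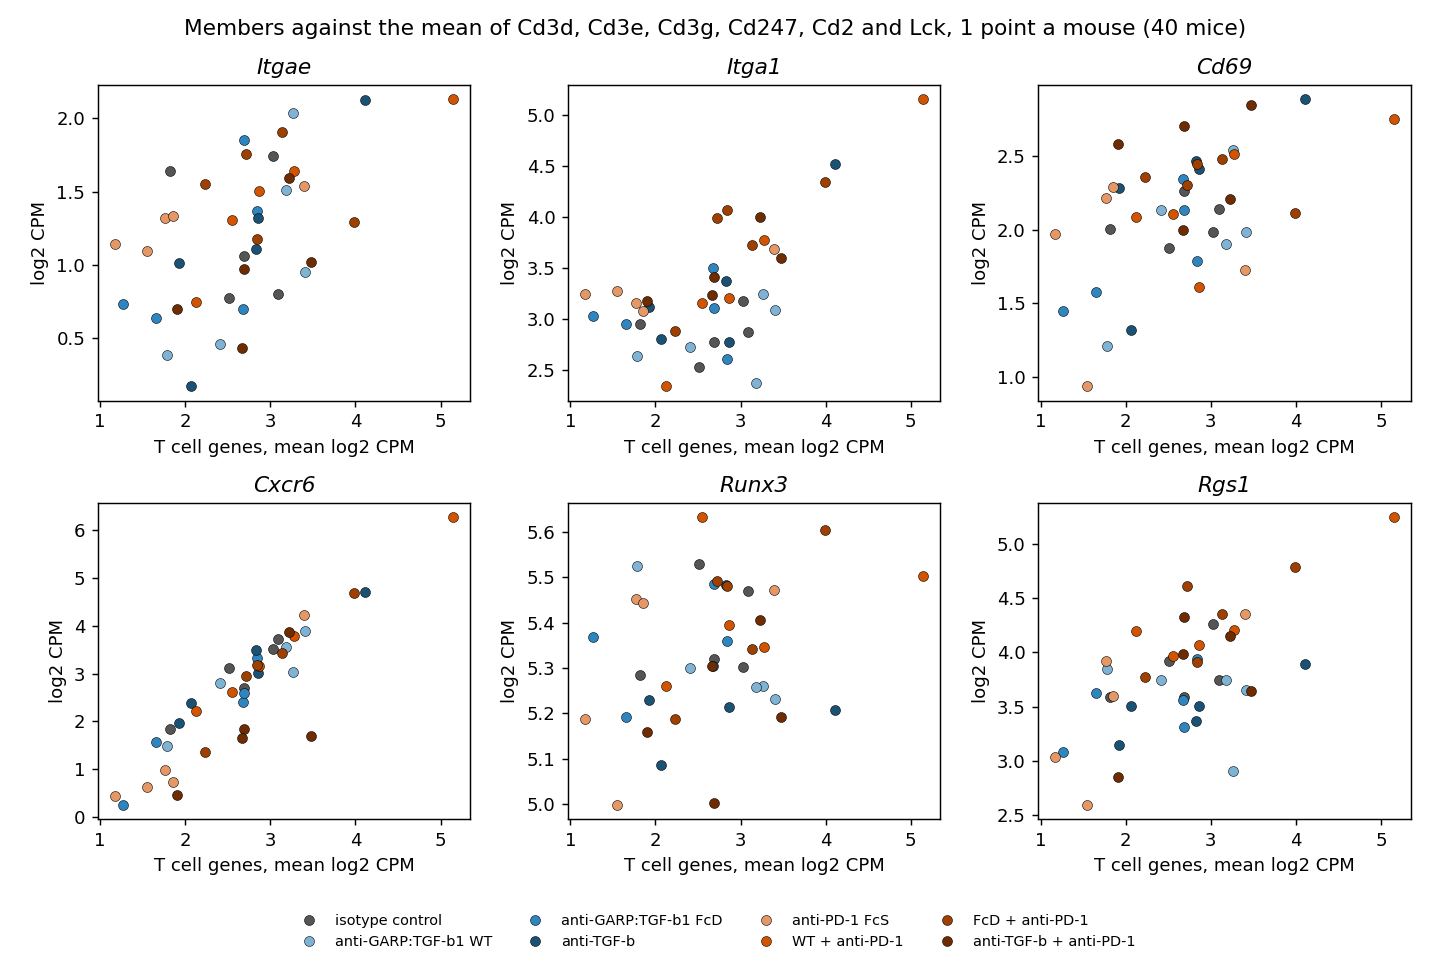
log2 CPM of each gene (vertical axes) against the mean log2 CPM of 6 T cell genes (horizontal axes) in 40 mice, colored by group. Cxcr6 rises along a narrow band (r = 0.93 within groups), and Runx3 is nearly flat (r = 0.28).

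The level of each member relative to the T cell genes was the log2 CPM of the member minus the T cell level of the same mouse. For Cxcr6 the within-group SD fell from 1.22 to 0.570 on this scale. It was 0.542 and 0.540 for Itga1, and it was larger on the relative scale for Rgs1 (0.460 and 0.627), Itgae (0.505 and 0.638), Cd69 (0.414 and 0.699) and Runx3 (0.147 and 0.755). The relative level of Cxcr6 differed from the isotype control by 0.06 in mice of the WT and -0.22 in mice of the FcD combination, by -0.90 under anti-PD-1 alone and by -1.24 in mice given anti-TGF-β and anti-PD-1. With Cd8a and Cd8b1 as the reference the last pair were -0.21 and -0.62. When the T cell level entered the edgeR model as a covariate, Cxcr6 with the anti-TGF-β combination was at -1.11 (SE 0.29, adjusted p = 0.0650). In the same model the anti-PD-1 average passed for Itga1 (0.45, SE 0.12, adjusted p = 0.0124) and Rgs1 (0.36, SE 0.11, adjusted p = 0.0375), among 1312 genes called, and Cxcr6 was at -0.37 (adjusted p = 0.0984).

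For Itga1, Cd69 and Itgae the highest r was with a marker list of cells other than T cells. Itga1 had r = 0.90 with the endothelial genes Pecam1, Cdh5 and Kdr (rho = 0.78, permutation adjusted p = 0.000124 and 0.000198) and 0.82 without libraries 48 and 77. Within the parts this r was 0.94 and 0.89. Its r was 0.87 with macrophage genes, 0.74 with regulatory T cell genes and 0.64 with fibroblast genes. In libraries 41 to 60 and 61 to 80 it was 0.82 and 0.41 with regulatory T cell genes, and 0.78 and 0.27 with fibroblast genes. Cd69 had r = 0.78 with the NK cell genes (rho = 0.75, adjusted p = 0.000124 and 0.000198), 0.71 without libraries 47 and 77, and 0.76 and 0.67 within the parts. With type 1 dendritic cell genes Cd69 had r = 0.69 and Itgae r = 0.66 (rho = 0.65, adjusted p = 0.000371 and 0.000792), the highest of the 14 lists for Itgae. Within the parts that of Itgae was 0.63 and 0.79, and without libraries 48 and 77 it was 0.57. Rgs1 had its highest r with Cd8a and Cd8b1, 0.67, and with Cxcr6 itself 0.69. Whether these r differ from those with the T cell level was not tested.

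For Runx3 the only list with an adjusted p under 0.05 was that of carcinoma genes, with r = 0.42 (rho = 0.44, permutation adjusted p = 0.0389 and 0.0290). That relation did not hold within the library parts, where r was 0.06 and -0.02, and it was -0.02 once the parts were taken out. It therefore rests on the difference between libraries 41 to 60 and 61 to 80. With the parts taken out, Runx3 instead had permutation adjusted p under 0.05 with CD8 T cell genes (r = 0.43, adjusted p = 0.0257), regulatory T cell genes (0.42, 0.0253), the T cell level (0.38, 0.0449), Cxcr6 (0.50, 0.00972) and Rgs1 (0.44, 0.0426). Their r was 0.53 to 0.80 in libraries 41 to 60 and -0.035 to 0.14 in libraries 61 to 80.

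**Figure D4:**
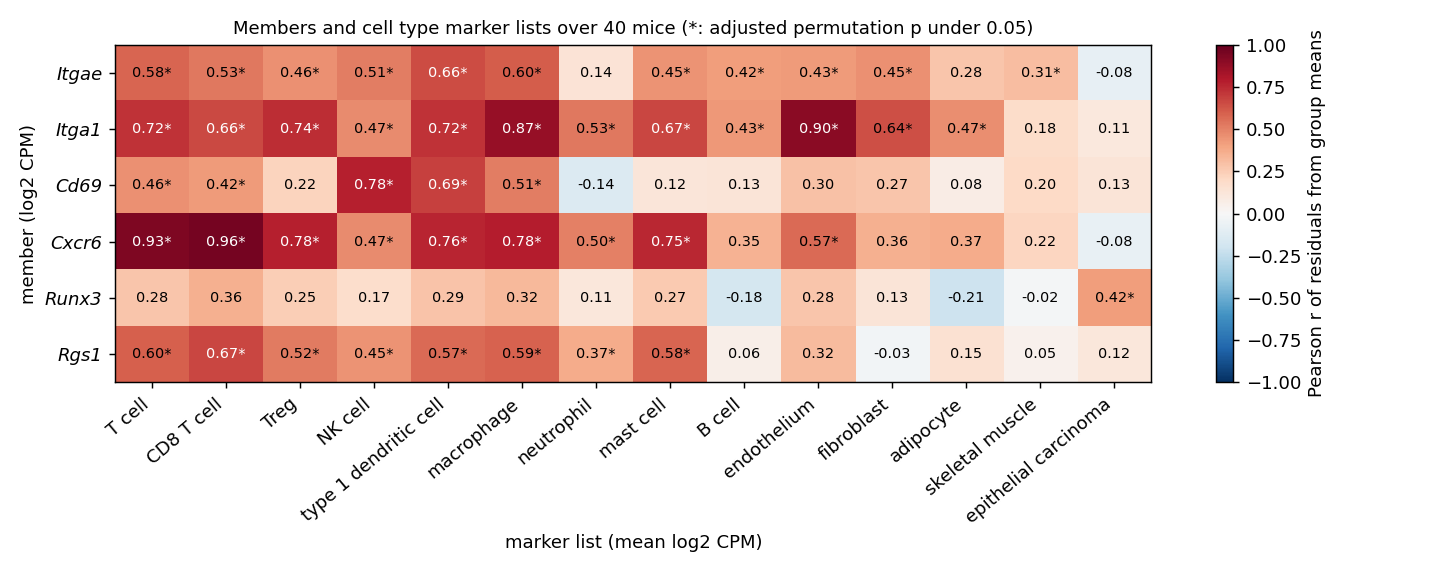
Pearson r over 40 mice between each gene (rows) and 14 marker lists (columns), on deviations from the group means, with a star where the permutation adjusted p was under 0.05. Cxcr6 is highest with CD8 T cells (0.96), Itga1 with endothelium (0.90), Cd69 with NK cells (0.78) and Itgae with type 1 dendritic cells (0.66).

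The genes whose pattern over the 40 mice was most like each member are given by r of the same deviations, as a description over 14760 genes. For Cxcr6 they were Cd8b1 (0.96), Pdcd1, Cd8a and Cd3g, all genes of T cells. For Itga1 they were Csf2rb (0.93), Man1c1, Pde4b, Eng and Manba. For Cd69 they were Ifi44l (0.86), Phf11b, Sp110, Ppt1 and Cd40, of which Ifi44l and Sp110 are known as interferon-induced. For Rgs1 they were Soat1 (0.80), Id2, Pde8b, Adam8 and Vps26a. Runx3 had Hk1 (0.75), Dync1h1, Rap1gds1, Myh9 and Smarca4, which are expressed in most cells. Itgae had Cd4 (0.72), Kmo, an entry whose symbol the table holds as a calendar date, Nfatc2 and Eif5a2.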

How the data were processed

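RNA of whole CT26 tumors from 40 mice, 5 in each of 8 groups, was sequenced as paired-end stranded mRNA libraries. The authors aligned reads to GRCm38 with STAR 2.5.3a, used SAMtools 1.6, counted reads per gene with HTSeq 0.9.1 (versions from the submitters' processing notes) and deposited raw read counts, not normalized, of 54087 genes. All 40 columns were used (0 left out), and mice were grouped by the labels. p-values measure the spread between mice.

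Counts were scaled with TMM, filtered with filterByExpr (14760 genes kept) and fitted in 1 cell-means model with edgeR 4.0.16 (R 4.3.3, limma 3.58.1), robust quasi-likelihood, Benjamini-Hochberg over all genes tested. Standard errors are the absolute log2 fold change over the square root of F. Log2 CPM used a prior count of 2. Totals of 11931730 to 20680548 counts limit the precision of the low genes, and Itgae with 13 counts has a counting error beside that between mice. Exact permutation tests used all 252 divisions of 10 mice. Alternatives were DESeq2 1.42.0 (its size factors, or its Wald test on genes with at least 1 count), no filter, only the groups compared, library part or T cell level as a covariate, each mouse left out, a prior count of 0.5, a CD8 reference, and raw or part-adjusted correlations. The edgeR step was tested on simulated data. Named genes are the 6 members, the genes of 5 lists around them and the 5 most similar genes of each. Some genes that this rule names are not reported here. The members, although named by a rule that uses no measured value, and the lists and tests were chosen with earlier results of these data known. Positions come from GENCODE vM21, and promoter sequences from RefSeq on GRCm38.p6. Python 3.11.15 with numpy 2.4.6, pandas 2.3.3 and scipy 1.17.1 was used.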

Additional observations from a re-analysis of the deposited data

Results flagged for a closer look

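Within groups of 5 mice, 9 of the 48 gene and group pairs held a mouse far from the other 4 by Dixon's test (the gap to the nearest mouse over the group's range). The test flags about 1 in 20 for independent, normally distributed values. CPM are skewed and the pairs share mice, so no excess over that rate can be read from the count. Itga1 had such a high mouse with anti-TGF-β (22.8 CPM, library 48), with anti-PD-1 (12.8 CPM, library 52) and with the WT combination (35.4 CPM, library 77). Cxcr6 had one with anti-PD-1 (18.5 CPM, library 52), with the WT combination (76.4 CPM, library 77) and with anti-TGF-β and anti-PD-1 (14.4 CPM, library 53). Runx3 had a high mouse with anti-GARP:TGF-β1 WT (45.9 CPM, library 73). Rgs1 had a low mouse with anti-GARP:TGF-β1 WT (7.33 CPM, library 42) and a high one with the WT combination (37.8 CPM, library 77). Libraries 52 and 77 also had the T cell, CD8 T cell and mast cell levels farthest from the median once each mouse was taken as a deviation from its group mean. Library 77 was in addition 1 of the 2 farthest for NK cell, type 1 dendritic cell, macrophage, endothelial and carcinoma genes, and library 52 for skeletal muscle genes. Library 48 was 1 of the 2 farthest for regulatory T cell, type 1 dendritic cell, B cell, macrophage, neutrophil, fibroblast, endothelial and adipocyte genes. What sets these tumors apart was not tested.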

How the results depend on the processing

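Of 39 fold changes of members given, all kept their direction and their side of the threshold with DESeq2's size factors, without the filter and with library part as a covariate, as did the 33 fitted with only the groups compared. The anti-PD-1 average uses every group, so that last setting gave it no value. DESeq2's Wald test brought Itga1 and Rgs1 past the threshold in the anti-PD-1 average, and so did the T cell covariate. That covariate turned 5 values: Rgs1 with the anti-TGF-β combination against anti-PD-1 to -0.00014, Itgae with anti-TGF-β against the isotype control to -0.14, and Cxcr6 to -0.23 with the WT combination against the isotype control, to -0.37 in the anti-PD-1 average and to -0.051 in the anti-GARP average. Leaving out each mouse gave ranges that crossed 0 for Cxcr6 with the WT combination (-0.056 to 1.62) and in the anti-PD-1 average (-0.29 to 0.30), for Itgae with anti-TGF-β (-0.32 to 0.20) and for Runx3 in the anti-GARP average (-0.013 to 0.047). Itga1 with anti-TGF-β against the isotype control fell to 0.17 without library 48, and Cd69 with the FcD combination against anti-PD-1 to 0.28 without library 47.

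Counts of genes called over the whole table moved far more than the members. Against the isotype control, DESeq2's Wald test called 1 gene each with anti-GARP:TGF-β1 WT, anti-TGF-β and anti-PD-1, 14 for the FcD and 139 for the anti-TGF-β combination, and 78 for the latter against anti-PD-1, 860 for the anti-PD-1 average, 59 for the anti-TGF-β average, and 1 and 2 for the interactions of WT and of anti-TGF-β. The T cell covariate gave 58 for the FcD and 11 for the anti-TGF-β combination against the isotype control, 0 for the latter against anti-PD-1, 1312 for the anti-PD-1 and 0 for the anti-TGF-β average. Library part gave 17 for the FcD combination, 385 and 3 for these averages. The size factors gave 38 for the anti-PD-1 average, no filter gave 0 for both averages, and only the groups compared gave 177 for FcD and 8 for anti-TGF-β combinations against the isotype control, and 0 for the anti-TGF-β average and for its combination against anti-PD-1. Leaving out each mouse gave 0 to 2006 genes (anti-TGF-β combination against the isotype control, the most without library 53), 0 to 538 (WT combination against anti-PD-1, library 52), 0 to 1734 (anti-TGF-β combination against anti-PD-1, library 53), 0 to 2243 (anti-PD-1 average, the most without library 48), 0 to 272 (anti-TGF-β average, library 53) and 0 to 1 (anti-TGF-β interaction). The cause was not tested.

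With Cd8a and Cd8b1 in place of the 6 T cell genes, the levels relative to T cells of anti-PD-1 alone minus the isotype control moved to 1.46 for Itgae, 1.80 for Itga1, -0.21 for Cxcr6 and 1.06 for Rgs1, and those of the combination of anti-TGF-β to 1.09 for Itga1, -0.62 for Cxcr6 and 0.44 for Rgs1. In the latter group that reference also turned Itgae from -0.43 to 0.20 and Runx3 from -0.33 to 0.30, and took Cd69 from 0.25 to 0.88, each by less than the within-group SD. A prior count of 0.5 moved none of the 42 differences by more than the within-group SD. The relations with an adjusted p under 0.05 were 56 on raw values and 56 with library part taken out, against 52. With library part taken out, Runx3 had r = -0.023 with carcinoma genes and r = 0.38 with the T cell level (adjusted p = 0.0449). No paired analysis was possible because the labels carry no replicate numbers shared between groups. For Itgae, the gene with the fewest counts, the counting error at the median count was 17.7%, against a coefficient of variation across mice of 36.5%.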
